A study of Homo sapiens with 2 samples.

Results

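The classical protein tyrosine phosphatases were examined as a family in L-428 cells, an established Hodgkin lymphoma (HL) cell line, after knock-down of PRAME. Members were all probe sets whose only annotated gene symbol begins with PTPN or PTPR followed by a number or letter. The family was chosen by name, but on the MAS5 log2 ratio of PTPRB in these same arrays, so its values below are a description and support nothing by themselves. The rule found 109 probe sets for 40 of the 19775 gene symbols in the annotation. These were 17 receptor type phosphatases (PTPR), 17 non-receptor type phosphatases (PTPN), 5 antisense RNAs and PTPRCAP, which is a CD45-associated protein and no phosphatase. PTPRJ, PTPRQ, PTPRT and PTPRVP had no such probe set and were not analyzed here.
One array was hybridized with RNA from stably transfected L-428 cells with the plasmid pcDNA6.2-GW/EmGFP-miR-PRAME, which expresses an artificial microRNA against PRAME, and the other with RNA from cells with the empty plasmid, pcDNA6.2-GW/EmGFP-miR-neg. Thus both cell populations carry a vector with EmGFP, and clones or pools were not named. The values are MAS5 signal intensities on a linear scale for 54675 probe sets of HG_U133PLUS2.0 arrays (the trimmed mean was 500.1 on both arrays, and the median was 109.9 in knock-down cells and 91.9 in control cells). The description of the series as a whole speaks of L-540 cells and of another array type, but both samples are labelled L-428. PRAME itself had a signal of 1251 in knock-down cells and 2115 in control cells (log2 ratio -0.80).
Protein tyrosine phosphatases remove phosphate groups from tyrosine residues and thereby oppose tyrosine kinases. Receptor types span the cell membrane and carry their catalytic domains inside the cell, whereas non-receptor types are found in the cytosol, at inner membranes or in the nucleus. Some of them, such as CD45 (PTPRC) in lymphocytes, promote signaling because they remove inhibitory phosphates from Src family kinases. Others, such as PTPN1, PTPN2 and PTPN6, dampen the JAK-STAT pathway, which is active in HL cells.

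A probe set was kept when the mean log2 signal of both arrays reached the median of all probe sets, which corresponds to a signal of 97.7. The log2 ratio is that of knock-down over control, centered by the median of all kept probe sets. For each gene the strongest kept probe set was used. By this filter, 51 of the 109 member probe sets and 25 of the 40 member genes were measured, namely 13 receptor types and 12 non-receptor types. With 1 array per condition no test was performed. The log2 ratios of several kept probe sets for one gene varied with a pooled SD of 0.33 (5840 genes), and this is no measure of how cultures vary. A lower or higher signal can come from the number of cells that express a gene or from the RNA per cell, and these cannot be told apart.
Differences of at least 1.5-fold were found among receptor types. PTPRB, PTPRC and PTPRR were at least 1.5-fold higher in PRAME knock-down cells and PTPRG was at least 1.5-fold lower. Among all 11794 measured genes, 7.54% were higher and 5.42% lower by this criterion. None of the 12 non-receptor types passed 1.5-fold in either direction. For all genes together the share past 1.5-fold in either direction was 13%. PTPRB and PTPRC were also at least 2-fold higher, as were 1.73% of all genes, and no measured phosphatase was 2-fold lower (0.729% of all genes). These counts depend on the filter, which left out the non-receptor type PTPN14, described below. Log2 ratios above 0 were found for 16 of the 25 phosphatases, beside 49% of all genes.
The medians of both types were close to each other. The median log2 ratio was 0.095 for the receptor types and 0.060 for the non-receptor types, beside -0.0069 for all genes. The difference of 0.035 changed its sign with the scaling (-0.0065 with quantile normalization, -0.010 when the trend with signal was removed). Ratios of the receptor types ranged from -0.70 to 1.37 with an SD over genes of 0.58, and those of the non-receptor types from -0.23 to 0.46 with an SD of 0.21. All genes had an SD of 0.41. Without PTPRB, PTPRC and PTPRR the 10 other receptor types had a median of -0.043 and an SD of 0.28, so the SD of 0.58 rested on these 3 genes, of which PTPRB is the one the family was chosen on. Members are different genes and no replicates of a type, so the types were not compared by a test.

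**Figure D1:**
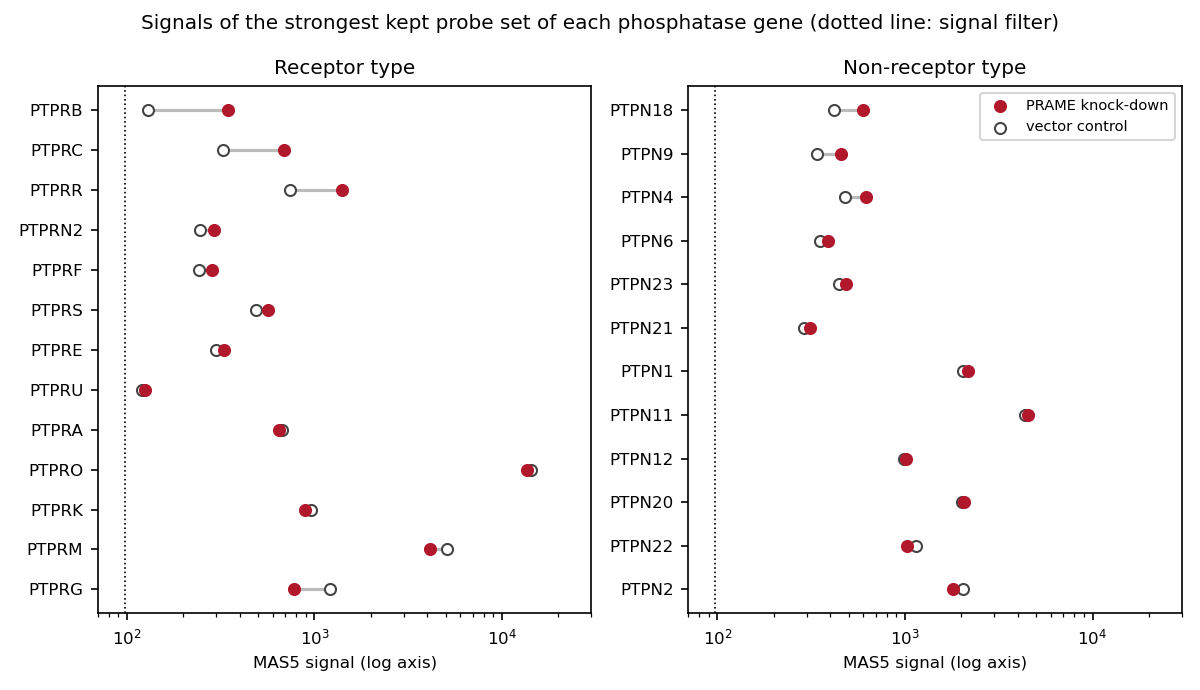
MAS5 signals (log axis) of the 13 measured receptor types and the 12 measured non-receptor types in PRAME knock-down cells (red) and vector control cells (open), with 1 array per condition and the probe set of highest signal for each gene. The points of PTPRB, PTPRC and PTPRR lie apart with the higher signal in knock-down cells, and those of PTPRG lie apart with the lower one; signals of different genes depend on their probes and are not comparable.

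**Figure D2:**
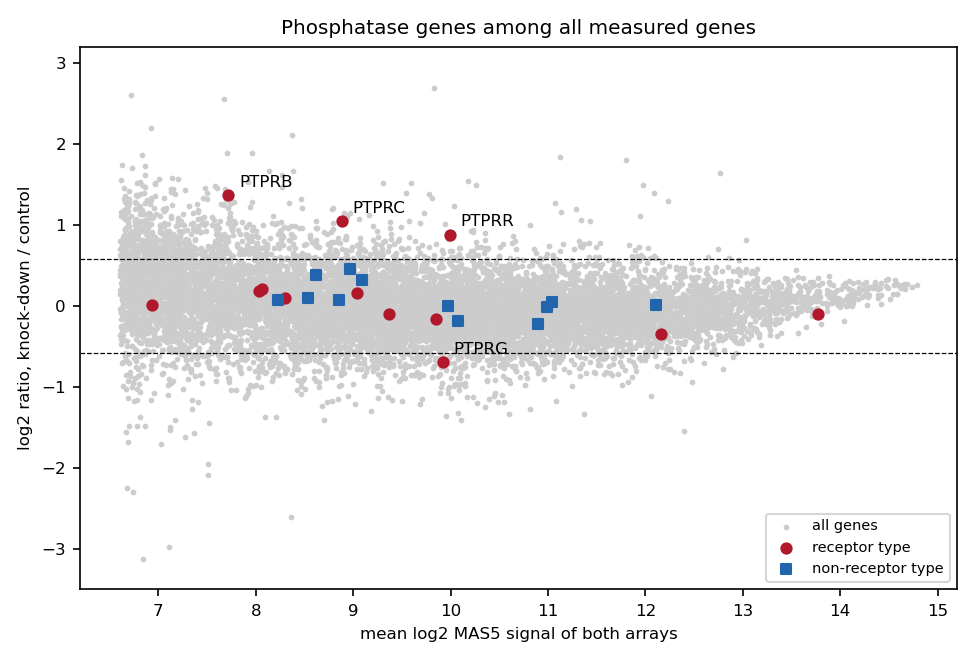
Log2 ratio (PRAME knock-down over vector control, vertical) and mean log2 MAS5 signal (horizontal) for all 11794 measured genes (grey), receptor types (red circles) and non-receptor types (blue squares), 1 array per condition, dashed lines at 1.5-fold. PTPRB (1.37), PTPRC (1.05) and PTPRR (0.88) lie above the upper line and PTPRG (-0.70) below the lower one, while all non-receptor types lie between the lines.

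PTPRB, also known as VE-PTP, is a receptor phosphatase of endothelial cells that acts on the angiopoietin receptor TEK and on the adhesion complex of CDH5. Among the members that passed the filter it showed the highest ratio. Without a filter PTPN13 was higher (1.46, with signals of 18.6 in knock-down cells and 6.10 in control cells), beside 1.27 for PTPRB. The signal of probe set 230250_at was 344 in knock-down cells and 129 in control cells (log2 ratio 1.37, or 2.58-fold higher). For 205846_at it was 199 in knock-down cells and 58.5 in control cells (log2 ratio 1.72). The mean of both kept probe sets was 1.54 ± 0.25 (SD of 2 probe sets). The control signal of 205846_at was under the filter signal of 97.7, so it was kept only through its signal in knock-down cells. The 2 probe sets below the filter were also higher, with 107 in knock-down cells and 74.4 in control cells for 1560105_at and with 61.6 in knock-down cells and 19.5 in control cells for 217177_s_at. All 4 probe sets thus had the same direction. The control signals are low, so that the size of the ratio is not well determined. When 64 was added to all signals before the logarithm, 230250_at had a log2 ratio of 1.04 and 205846_at of 1.06. Of the 3862 genes with a mean signal under 400, 17.4% were at least 1.5-fold higher and 4.32% at least 2-fold higher.
PTPRR, a receptor phosphatase with a kinase interaction motif that acts on the MAP kinases ERK1 and ERK2, was higher in both of its probe sets. For 210675_s_at the signal was 1407 in knock-down cells and 739.6 in control cells (log2 ratio 0.88, 1.84-fold higher). The other one, 206084_at, had a signal of 1219 in knock-down cells and 570 in control cells (log2 ratio 1.05). These signals lie well above the filter. Of the 7932 genes with a mean signal of 400 or more, 2.72% were at least 1.5-fold higher. The offset of 64 left the log2 ratio of 210675_s_at at 0.83. Among the 5840 genes with several kept probe sets, 0.89% were at least 1.5-fold higher in every one of them, and PTPRB, PTPRC and PTPRR belonged to these. The family was chosen on PTPRB, so this share supports nothing for it, and its probe set 1560105_at below the filter had only 0.48. For PTPRC, 207238_s_at was below 1.5-fold with the offset of 64 (0.47) and with the trend with signal removed (0.54). No phosphatase was at least 1.5-fold lower in every kept probe set, compared with 0.925% of these genes.
PTPRB and PTPRR are neighbours on chromosome 12, with no other protein-coding gene between them in the RefSeq table of GRCh38.p14. Of the 24 coding genes in a window of 12 genes on each side, 13 were measured. None of these was at least 1.5-fold higher or lower by its probe set of highest signal, and their log2 ratios ranged from -0.37 (THAP2) to 0.25 (CPSF6) with a median of -0.036. The nearest measured gene beside PTPRB was KCNMB4, a potassium channel subunit, with 645 in knock-down cells and 745 in control cells (log2 ratio -0.25). Next to PTPRR, the tetraspanin TSPAN8 had a signal of 5195 in knock-down cells and 5059 in control cells (log2 ratio -0.0067). A difference of at least 1.5-fold was thus seen for both phosphatase genes and for none of the 13 measured genes around them. All 13 had signals above 400 on both arrays. Of all genes with a mean signal of 400 or more, 2.72% were at least 1.5-fold higher and 5.14% lower. None of 13 is close to these shares, and the family was chosen on the ratio of PTPRB. The 650 measured genes of chromosome 12 had a median of 0.076.

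**Figure D3:**
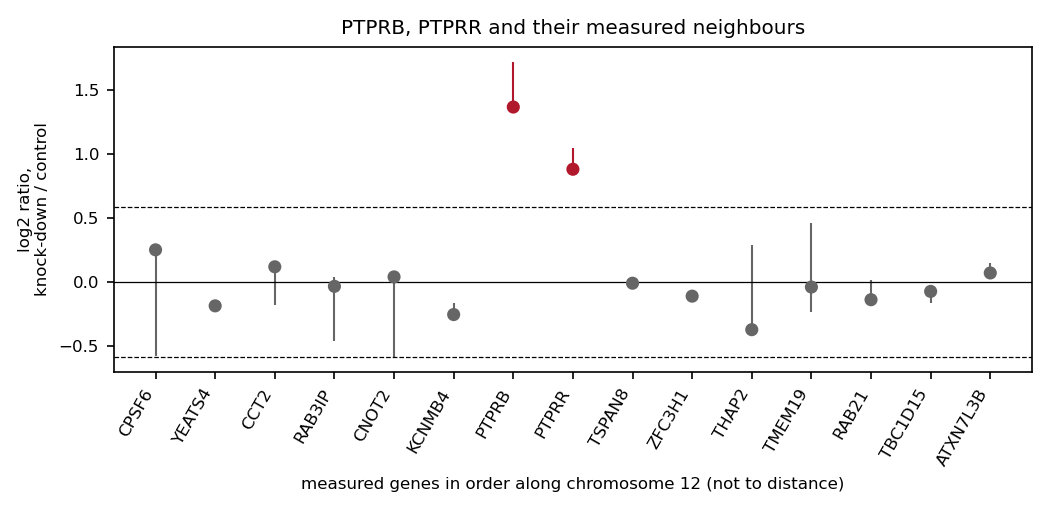
Log2 ratios (knock-down over control array) of the measured protein-coding genes around PTPRB and PTPRR in their order along chromosome 12, 1 array per condition. Points are the probe set of highest signal, vertical lines span all kept probe sets of the gene, and dashed lines stand at 1.5-fold; PTPRB (1.37) and PTPRR (0.88) are above the upper line and the 13 other genes have points from -0.37 to 0.25.

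PTPRC encodes CD45, the abundant receptor phosphatase of white blood cells, which HL cells in tissue usually lack on their surface. All 3 kept probe sets were higher in PRAME knock-down cells. The strongest one, 212588_at, gave 692 in knock-down cells and 325 in control cells (log2 ratio 1.05, 2.07-fold higher). For 207238_s_at the signal was 247 in knock-down cells and 154 in control cells (log2 ratio 0.64), and for 212587_s_at it was 205 in knock-down cells and 110.2 in control cells (log2 ratio 0.85). The mean of the 3 probe sets was 0.84 ± 0.21 (SD of 3 probe sets). When the trend with signal was removed, 212588_at had 1.07, 212587_s_at 0.70 and 207238_s_at 0.54, the last below 1.5-fold. Another 2 probe sets, 1569830_at and 1552480_s_at, had signals under 10 on both arrays. PTPRCAP, the CD45-associated protein, had a signal of 6.38 in knock-down cells and 7.77 in control cells and was below the filter.
Promoters were read for the genes that differed. RefSeq promoter sequences (GRCh38.p14, 1 start per gene) were found for 31 of the 34 phosphatase genes, not for PTPRB, PTPRN2 and PTPN11. Over the 250 bases before the start, the 31 promoters had a median of 22 CpG dinucleotides, compared with 11 for all 27305 promoters. In the windows read, PTPRR and PTPRC had 1 CpG each, as did PTPN2, and PTPN3 had 0. Other starts of these genes were not read, and which start is used in L-428 cells was not tested. PTPRG, the lower receptor type, had 32, and 7 of the 31 promoters had 32 or more, among them those of PTPRK, PTPRM, PTPRS and PTPRU, which were within 1.5-fold. Of all promoters, 15.4% had 1 CpG or fewer and 9.26% had 32 or more. The sequences of the 2 higher genes and of PTPRG are shown to compare their base composition, with CpG dinucleotides in capitals and 5′ to 3′ on the strand of the gene. They are located at chr12:70754609-70754858 (minus strand, PTPRR), chr1:198638790-198639039 (plus strand, PTPRC) and chr3:61561321-61561570 (plus strand, PTPRG).
PTPRR: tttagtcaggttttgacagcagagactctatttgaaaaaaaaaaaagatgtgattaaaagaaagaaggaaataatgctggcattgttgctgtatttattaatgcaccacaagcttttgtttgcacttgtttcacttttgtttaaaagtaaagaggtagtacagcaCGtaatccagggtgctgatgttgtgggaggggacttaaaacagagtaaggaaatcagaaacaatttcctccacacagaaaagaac
PTPRC: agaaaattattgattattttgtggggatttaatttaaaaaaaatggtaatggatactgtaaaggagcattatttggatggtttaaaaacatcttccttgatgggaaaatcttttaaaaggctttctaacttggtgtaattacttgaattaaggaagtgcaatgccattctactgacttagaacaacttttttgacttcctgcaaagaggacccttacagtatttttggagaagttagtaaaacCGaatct
PTPRG: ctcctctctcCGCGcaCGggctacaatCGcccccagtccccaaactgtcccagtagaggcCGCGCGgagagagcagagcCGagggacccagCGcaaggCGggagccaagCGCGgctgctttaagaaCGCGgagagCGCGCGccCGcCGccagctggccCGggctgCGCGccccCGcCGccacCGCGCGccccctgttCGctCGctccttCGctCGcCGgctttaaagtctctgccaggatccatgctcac
The share of G and C was 35.6% for PTPRR, 31.2% for PTPRC and 71.2% for PTPRG, compared with a median of 58.0% over all promoters. Because retinoic acid signaling was the question of the study, the half-site AGGTCA of nuclear receptors was searched on both strands. It was found in 12.1% of all promoters and in 2 of 31 promoters of the family (PTPN5 and PTPN21), and these letters are not in the 3 windows shown. A match or its absence says nothing about the binding of a receptor.

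PTPRG, a receptor phosphatase with a carbonic anhydrase-like domain outside the cell, was lower in PRAME knock-down cells. Signals for 204944_at were 773 in knock-down cells and 1217 in control cells (log2 ratio -0.70, 1.62-fold lower). The signal of 227126_at was 599.9 in knock-down cells and 1048 in control cells (log2 ratio -0.85). The remaining kept probe set, 244574_at, had 295 in knock-down cells and 347 in control cells (log2 ratio -0.28), which is below 1.5-fold. A probe set below the filter, 1569323_at, had 53.7 in knock-down cells and 98.2 in control cells (log2 ratio -0.92). All 4 probe sets had log2 ratios below 0, as in 11.8% of the 1393 genes with 4 probe sets. By the strongest probe set, 5.14% of the genes with a mean signal of 400 or more were at least 1.5-fold lower. The other member of this class, the pleiotrophin receptor PTPRZ1, had a signal of 15.5 in knock-down cells and 7.93 in control cells.
The adhesion-type receptors of the PTPRK group had log2 ratios close to or below 0. PTPRM, which mediates homophilic cell contacts, had a signal of 4130 in knock-down cells and 5073 in control cells for 1555579_s_at (log2 ratio -0.34) and of 3750 in knock-down cells and 3812 in control cells for 203329_at (log2 ratio -0.069). PTPRM lies on chromosome 18, and the median over the 170 genes measured there was -0.31. PTPRK, a related adhesion-type receptor, had 886 in knock-down cells and 958 in control cells (log2 ratio -0.16). PTPRU of the same group had 125 in knock-down cells and 120.3 in control cells (log2 ratio 0.0093).
The LAR-type receptors PTPRF and PTPRS, which bind proteoglycans and organize cell contacts and synapses, had log2 ratios of 0.18 and 0.16. PTPRA, which activates SRC, had 650.2 in knock-down cells and 674 in control cells (log2 ratio -0.096, with -0.34 for its second kept probe set). Its relative PTPRE had 329.9 in knock-down cells and 299 in control cells (log2 ratio 0.095). PTPRN2, a protein of secretory granules without known activity towards phosphotyrosine, had a log2 ratio of 0.21. All these differences are below 1.5-fold and not larger than the pooled SD of probe sets, except that of the second probe set of PTPRA.
PTPRO, a receptor phosphatase of kidney podocytes with a shorter form in B cells, gave different results with its probe sets. Signals for 211600_at were 13674 in knock-down cells and 14262 in control cells (log2 ratio -0.11). That of 208121_s_at was 197 in knock-down cells and 85.3 in control cells (log2 ratio 1.16), and 1554199_at, below the filter, had 42.5 in knock-down cells and 40.5 in control cells. The direction of PTPRO thus depended on the probe set. The median of both kept probe sets was 0.53, and 208121_s_at was kept only through its signal in knock-down cells.

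**Figure D4:**
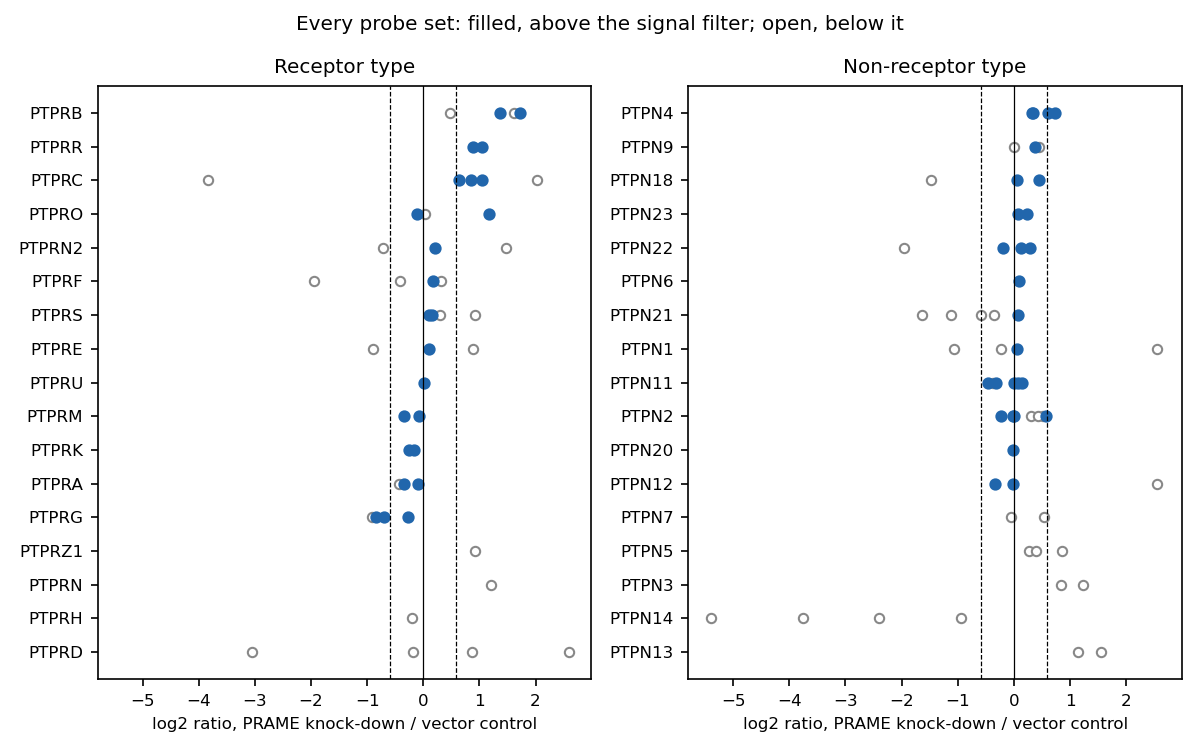
Log2 ratios (knock-down over control array) of all 103 probe sets of the 34 phosphatase genes, 1 array per condition. Filled points passed the signal filter, open points did not, and dashed lines stand at 1.5-fold; the filled points of PTPRB, PTPRR and PTPRC all lie above the upper line, and the open points of PTPN14 all lie below the lower one.

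The non-receptor phosphatases that dampen JAK-STAT signaling showed little difference. PTPN1 (PTP1B), which acts on JAK2 and STAT6 and is known to be mutated in some HL, had a signal of 2179 in knock-down cells and 2036 in control cells (202716_at, log2 ratio 0.053). The 3 other PTPN1 probe sets were below the filter and had log2 ratios of -1.06, -0.22 and 2.56 at signals of at most 123. PTPN6 (SHP-1), a phosphatase of blood cells recruited by inhibitory receptors, was measured by its only probe set with 389 in knock-down cells and 353 in control cells (log2 ratio 0.097). PTPN11 (SHP-2), which promotes RAS signaling, had 4504 in knock-down cells and 4347 in control cells (log2 ratio 0.0060), and its 5 kept probe sets ranged from -0.46 to 0.15.
PTPN2 (TC-PTP), which acts on JAK1, JAK3 and STAT proteins, was measured by 4 kept probe sets. For 213136_at the signal was 1794 in knock-down cells and 2037 in control cells (log2 ratio -0.23), and 213137_s_at had 1113 in knock-down cells and 1091 in control cells (log2 ratio -0.017). The low probe set 241983_at had 158 in knock-down cells and 102 in control cells (log2 ratio 0.58), just below 1.5-fold. PTPN2 lies on chromosome 18. By the strongest probe set its ratio was -0.23, beside the median of -0.31 over the genes there by the same measure. PTPN1 and PTPRA lie on chromosome 20, where the median over 327 genes was -0.17. Pseudogenes of PTPN2 and PTPN11 and a copy of PTPN20 are listed in the RefSeq table, so their signals may be shared with them.
PTPN4, a FERM and PDZ domain phosphatase, was the non-receptor type with the highest median over probe sets (0.48), and all 4 probe sets were higher in PRAME knock-down cells. Its strongest probe set, 205171_at, gave 619 in knock-down cells and 480.2 in control cells (log2 ratio 0.32). For 232161_x_at it was 182 in knock-down cells and 107 in control cells (log2 ratio 0.73), and for 236935_at it was 287 in knock-down cells and 181 in control cells (log2 ratio 0.61). These 2 are the only probe sets of non-receptor types past 1.5-fold of 27 kept ones, whereas 8 of 24 kept probe sets of receptor types were higher and 2 lower by this criterion. Over all kept probe sets with a gene, 7.38% were higher and 6.54% lower. The 8 higher probe sets of receptor types came from PTPRB, PTPRC, PTPRR and PTPRO only. They include those of PTPRB, the gene on which the family was chosen. Among them, 205846_at (PTPRB) and 208121_s_at (PTPRO) were kept only through their signals in knock-down cells. Several probe sets of the same gene are counted separately here, so these counts are a description and support nothing by themselves.
The PEST-type phosphatases include PTPN22, which restrains antigen receptor signaling in lymphocytes, with 1030 in knock-down cells and 1139 in control cells (206060_s_at, log2 ratio -0.19, and 0.28 and 0.13 for its other kept probe sets). PTPN12 (PTP-PEST), a regulator of cell migration, had a log2 ratio of -0.0069. PTPN18, which acts on HER2, had 595 in knock-down cells and 420.3 in control cells (log2 ratio 0.46 and 0.056 in 2 probe sets). PTPN9, a phosphatase of secretory vesicles, had 458 in knock-down cells and 339 in control cells (log2 ratio 0.39). PTPN20, PTPN21 and PTPN23, the last a factor of endosomal sorting, had log2 ratios of -0.011, 0.068 and 0.070.

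PTPN14, a FERM domain phosphatase that restrains the Hippo pathway effector YAP, was not among the measured genes since its mean log2 signals were below the filter in all 4 probe sets. Signals for 226282_at were 9.39 in knock-down cells and 383 in control cells. For 244533_at it was 14.1 in knock-down cells and 184 in control cells, and for 242321_at it was 27.1 in knock-down cells and 138 in control cells. The remaining probe set, 205503_at, had 44.8 in knock-down cells and 83.2 in control cells. All 4 probe sets were thus at least 1.5-fold lower, as in 0.359% of the 1393 genes with 4 probe sets. PTPN14 was named after its values were seen, so this share is a description and supports nothing. The log2 ratios from -5.40 to -0.94 are uncertain in size, since the knock-down signals are low. With the offset of 64 they were between -2.65 and -0.48, and the last, that of 205503_at, was below 1.5-fold. A filter on the mean of both arrays leaves out such a gene, and a filter on the higher of both signals, chosen after these values were seen, kept it. This filter passes genes through the condition in which they are high, so its counts are given only as an alternative.
Of the other members below the filter, PTPRN, a protein of secretory granules, had a signal of 125 in knock-down cells and 52.9 in control cells. PTPN3, a relative of PTPN4, had 107 in knock-down cells and 57.6 in control cells for 203997_at. PTPN7, a phosphatase of blood cells that acts on MAP kinases, had 85.4 in knock-down cells and 57.3 in control cells for 1554860_at. PTPN5, PTPN13, PTPRD, PTPRH and PTPRZ1 had signals between 2.20 and 48.2 on both arrays. The antisense RNA PTPRN2-AS1 had 103.8 in knock-down cells and 33.2 in control cells. PTPRD-AS1, PTPRG-AS1, PTPRK-AS1 and PTPRT-AS1 were between 0.701 and 27.3. Differences at such signals were not counted.

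Genes that work with these phosphatases were read from lists chosen for their role. Of 9 partners of PTPRB, 3 were measured and none was at least 1.5-fold different. Its endothelial substrates were below the filter, with 70.1 in knock-down cells and 74.0 in control cells for TEK and 31.8 in knock-down cells and 10.8 in control cells for CDH5. CD45 and other phosphatases act on kinases of the Src family. Of 16 kinases, namely CSK and members of the Src, Syk and Tec families, 5 were measured with a median log2 ratio of -0.40. Of the 5 measured kinases, only LYN was at least 1.5-fold lower, with 883 in knock-down cells and 1308 in control cells (log2 ratio -0.61, and between -0.66 and -0.38 in 3 probe sets). Of all genes, 5.42% were lower by this criterion. YES1 had a log2 ratio of -0.40, BLK of -0.48, CSK of -0.079 and FYN of 0.079. SYK and BTK were below the filter.
Of 11 JAK kinases and STAT factors, 9 were measured with a median of -0.20. STAT4 was higher (log2 ratio 1.19), and STAT5A (-0.70) and STAT5B (-0.65) were lower by at least 1.5-fold, while JAK2 (-0.20) and STAT6 (0.031) were not. Of all genes, 13% passed 1.5-fold in either direction. The 5 kept probe sets of STAT5B ranged from -1.02 to -0.33, and the 3 of JAK2 from -0.57 to 0.53. STAT3 had a log2 ratio of -0.31 by its strongest probe set, and its 4 kept probe sets ranged from -0.94 to -0.31. Inhibitory receptors and adaptors that bind SHP-1 or SHP-2 had a median of 0.059 over 10 of 23 genes. Only the adaptor GAB3 passed 1.5-fold, with 74.6 in knock-down cells and 162 in control cells (log2 ratio -1.16). GAB3 was kept only through its signal in control cells, since the other was under the filter signal of 97.7. Of all genes, 5.42% were at least 1.5-fold lower. PECAM1, an inhibitory receptor that is also an endothelial marker, had 195 in knock-down cells and 129.9 in control cells (log2 ratio 0.54). Tyrosine phosphatases outside the family had a median of -0.14 over 10 of 14 genes. Among them were ACP1 (log2 ratio 0.22) and the cell cycle phosphatases CDC25B (-0.39) and CDC25C (-0.37). None passed 1.5-fold by the strongest probe set, beside 13% of all genes. The kept probe sets of CDC25C ranged from -0.37 to 0.45 and those of EYA3 from -1.35 to -0.17.
The labelled cell type was checked with marker genes. Of 9 markers of Hodgkin and Reed-Sternberg cells 8 were measured, among them CD30 (TNFRSF8) with 1667 in knock-down cells and 1893 in control cells and FSCN1 with 11799 in knock-down cells and 11028 in control cells, while CCL22 was below the filter. The median over these 8 was -0.21, and CD40 (log2 ratio -0.74), NFKB2 (-0.69) and FUT4 (-0.63) were at least 1.5-fold lower, beside 5.42% of all genes. The kept probe sets of CD40 ranged from -0.74 to 0.66 and those of FUT4 from -0.63 to 0.36. Of 7 B cell markers 5 were measured with a median of 0.054, and the antigen receptor chain CD79A was at least 1.5-fold higher, with 332 in knock-down cells and 178 in control cells (log2 ratio 0.85). Because PTPRB marks endothelial cells and PTPRC other blood cells, markers of these were read as well. Of 11 endothelial markers 3 were measured (PECAM1, ESAM and ROBO4), and the summed signal of all 11 was 715 in knock-down cells and 549 in control cells. The other endothelial markers had signals of at most 74.0. Of these, KDR, TEK and TIE1 were lower in knock-down cells, and VWF, CDH5, CLDN5, EMCN and ERG were higher. Of 8 markers of T and NK cells only NCAM1 was measured, with 172 in knock-down cells and 73.2 in control cells. NCAM1 was kept only through its signal in knock-down cells. The summed signal of these markers was 649 in knock-down cells and 366 in control cells. Of 6 myeloid markers only ITGAM was measured, and the sum over 5 annotated genes was 298 in knock-down cells and 231 in control cells. Of the T and NK cell markers below the filter, CD8A had 103 in knock-down cells and 30.7 in control cells. CD2 had 107 in knock-down cells and 46.6 in control cells, and KLRD1 had 121 and 65.8. CD3D, CD3E and CD3G had signals of at most 85.6, with log2 ratios of -0.020, -0.31 and 0.59. NKG7 had 14.2 in knock-down cells and 10.8 in control cells. No marker had a signal of 0. The sums were higher in knock-down cells, as was PTPRC, and their part in the result was not tested. The median log2 ratio of kept probe sets also depended on the signal, from 0.21 at signals of 97.7 to 136 to -0.088 at signals of 1362 to 2799.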

How the data were processed

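Each condition was hybridized to 1 Affymetrix HG_U133PLUS2.0 microarray. The authors used MAS5 in Affymetrix Expression Console 1.1 and deposited linear signal intensities. MAS5 corrects for background, summarizes the probe pairs and scales each array, here to a mean of 500.1 without the highest and lowest 2% of values. RMA values and detection calls were not used, and a genome build is not given in the sources used here.
Control probe sets (62) were left out. Log2 was taken of the signals as deposited, 27307 probe sets were kept, and 0.045 was subtracted from the log2 ratios. Of 54675 probe sets the platform annotation gave 1 symbol for 41097 (41043 found in the RefSeq table), several for 1801 and none for 11777, and only the first were used. RefSeq served for names, chromosomes, gene order and promoters. Named are PTPRB, PTPRC, PTPN1, PTPN2, PTPN6, members with a kept probe set past 1.5-fold or with none kept, further members by role, and from other lists those past 1.5-fold and up to 4 with the largest differences; other listed genes, PTPN14 as an example of the filter and the neighbours on chromosome 12 were named after their values were seen. Members, lists and the division at a signal of 400 were chosen with earlier results of these data known. Alternatives were no centering, quantile normalization, loess (span 0.4), an offset of 64, no filter, the 75th percentile, the median over probe sets, no probe sets ending in _s_at, _x_at or _a_at, and a filter on the higher signal. The number of arrays limits the precision. Scripts were tested on simulated data (statsmodels 0.14.6, pandas 2.3.3 and numpy 2.4.6 in Python 3.11.15; figures with matplotlib 3.10.9).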

Additional observations from a re-analysis of the deposited data

How the results depend on the processing

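PTPRB, PTPRC, PTPRR and PTPRG kept their direction and stayed past 1.5-fold in every alternative that measured them, and the filter at the 75th percentile did not measure PTPRB and PTPRC. Counts moved mainly with the filter. Without a filter, 10 phosphatase genes were past 1.5-fold (8 higher and 2 lower), and 6 probe sets of PTPN1, PTPN2, PTPN6 and PTPRC, compared with 3 before. These genes then included the non-receptor types PTPN3, PTPN5 and PTPN13, which were higher, and PTPN14, which was lower. At the 75th percentile 2 genes were past it (1 of them higher), no probe set of these 4 genes was (0 of 3), the receptor type median was -0.047, and the receptor median minus the non-receptor median was -0.11. The filter on the higher signal, added after seeing the data, gave 7 genes (5 higher, 2 lower), among them the non-receptor types PTPN3 and PTPN14. With the offset of 64, 2 genes were lower (PTPRG and PTPN14) and the PTPRB median was 1.05 instead of 1.54. Without the endings _s_at, _x_at and _a_at 1 probe set of the 4 genes was past 1.5-fold, and the difference of the type medians was -0.047. Of 208 further values of single genes under the alternatives, 2 moved by more than the SD between probe sets, namely PTPRO (0.53 with the median over probe sets) and PTPN22 (0.27 without these endings). No paired analysis was possible because each condition has 1 array. The causes were not tested, apart from the number of genes that each filter leaves.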
